A study of Homo sapiens with 18 samples.

Results

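CCND1 encodes cyclin D1, and the genes described here are CCND1 and 5 others of the same step of the cell cycle. The 6 genes were taken by their symbols from a table of 13141 genes measured in 786-O cells, and all 6 have a row. CCND1 was selected on its own signal in these arrays, which fell with VHL and rose after either shRNA, so its values in those comparisons are a description and carry no test. 786-O is an established line of human clear cell renal cell carcinoma without functional VHL. The VHL-/- groups are these cells, and the VHL+/+ groups are the same cells in which VHL was expressed again. In each background the cells stably carried a control shRNA (SCR), 1 shRNA against PBRM1 or 1 shRNA against KDM5C, which gave 6 groups of 3 Illumina HumanHT-12 V4 arrays. No agent was added to any group. Each target was addressed by a single shRNA in a single cell line, and the labels do not say whether the 3 arrays of a group came from separate cultures, so p-values measure the spread between arrays, which may be technical.

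VHL is the substrate receptor of a ubiquitin ligase that marks hypoxia-inducible factor (HIF) for degradation. PBRM1 is a subunit of a SWI/SNF chromatin remodelling complex, and KDM5C is a histone demethylase. All of them are tumor suppressors of clear cell renal cancer. D-type cyclins bind the kinases CDK4 and CDK6, and the active kinases phosphorylate the retinoblastoma protein RB1, which releases E2F transcription factors and lets the cell enter S phase. CDKN1A (p21) and CDKN1B (p27) bind cyclin-kinase complexes and restrain them. CCND1 is a known HIF2 target in clear cell renal cancer cells.

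The deposited values are log2 signals from 6.27 to 14.66 with a median of 7.65, and arrays of the same group correlated at 0.976 to 0.995 across genes. The labels carry a tag written ChIP with the values 1 and 2, which was read here as the array chip. On this reading chip 1 carried 12 arrays (replicates 1 and 2 throughout) and chip 2 the 6 arrays of replicate 3. Between the chips 3130 of the 13141 genes differed at a limma adjusted p under 0.05. The signals of PBRM1 and VHL did not bear out the labels, and KDM5C could not be checked. The shRNA groups are therefore named by label, without a knockdown shown on these arrays. PBRM1 lay at 7.02 to 7.52 on all arrays, with a log2 difference after PBRM1 shRNA of -0.06 in VHL-/- cells (limma adjusted p = 0.864) and -0.15 in VHL+/+ cells (adjusted p = 0.639). VHL mRNA differed by 0.08 between the SCR groups (adjusted p = 0.766), and KDM5C has no row in the table. Of the listed markers of kidney carcinoma epithelium 7 of 10 have a row and 6 of these lay above the median gene, among them PAX8, KRT8, KRT19 and VIM. PAX2, MME and LRP2 have no row. The fibroblast markers with a row, 4 of 6, all lay below the median gene by mean signal, and their mean was lower on the shRNA arrays of both backgrounds: 6.91 to 7.03 with SCR and 6.71 to 6.84 with either shRNA in VHL-/- cells, and 7.10 to 7.21 against 6.79 to 6.97 in VHL+/+ cells. COL1A1, COL1A2 and COL3A1 stayed between 6.63 and 6.97 on all arrays, whereas LUM alone ran from 6.74 to 8.34. Their part in the shRNA results was not tested. In RNA from whole cultures, fewer cells of a type and less RNA per cell cannot be told apart. The endothelial marker PECAM1 lay at 6.57 to 6.94, and of the leukocyte markers CD68 lay above the median gene and LYZ below it.

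CCND1 lies on chromosome 11 at 69641156 to 69654474 in the RefSeq annotation of GRCh38.p14. It was among the bright genes of the table, with a mean signal above that of 94.95% of genes. In VHL-/- cells with SCR its log2 signal was 11.18, 11.16 and 11.04 on the 3 arrays. With PBRM1 shRNA it was 12.68, 12.59 and 12.27, and with KDM5C shRNA it was 12.35, 12.31 and 12.74. Every shRNA array of this background lay above every SCR array, and the arrays of both shRNAs overlapped.

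In VHL+/+ cells with SCR the log2 signal of CCND1 was 9.46, 9.55 and 9.54. With PBRM1 shRNA it was 10.82, 11.005 and 10.86, and with KDM5C shRNA it was 10.95, 10.82 and 10.67. The same arrangement was seen again one step lower: both shRNA groups lay above SCR and overlapped each other. With the chip effect removed, the order of the group levels was VHL-/- with PBRM1 shRNA (12.51), VHL-/- with KDM5C shRNA (12.46), VHL-/- with SCR (11.12), VHL+/+ with PBRM1 shRNA (10.88), VHL+/+ with KDM5C shRNA (10.80) and VHL+/+ with SCR (9.51). Neighbours in this order overlapped only between the shRNA groups of a background. The gap between VHL-/- cells with SCR and the next group, VHL+/+ cells with PBRM1 shRNA, was 0.23 on the log2 scale, and no VHL+/+ array with either shRNA reached the lowest VHL-/- SCR array.

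**Figure D1:**
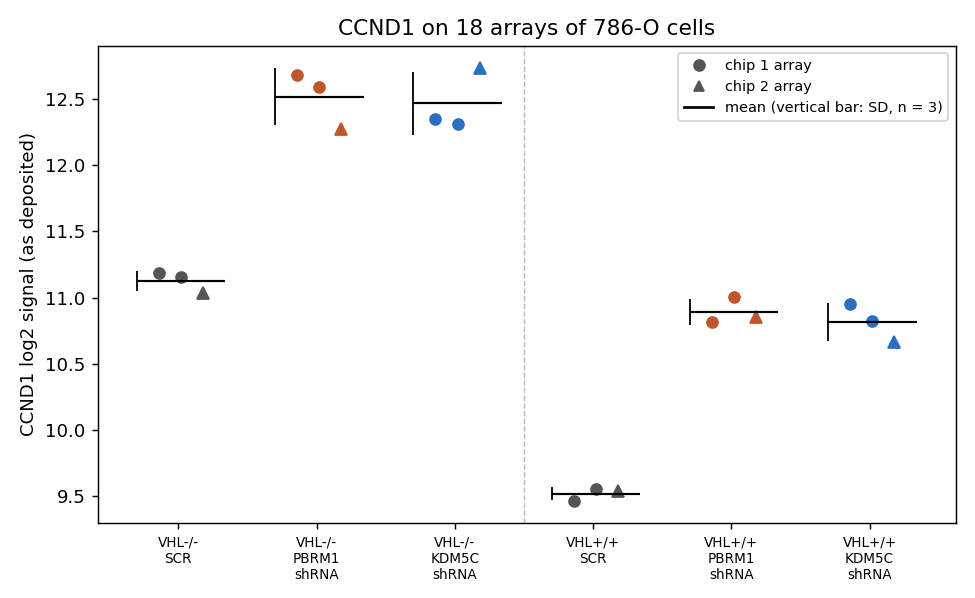
CCND1 log2 signal as deposited (vertical axis) on each of 18 arrays in the 6 groups (horizontal axis). Circles are chip 1 arrays, triangles chip 2 arrays, horizontal lines group means and vertical lines the SD (n = 3). The VHL-/- SCR arrays sit between 11.04 and 11.18, all above the VHL+/+ shRNA arrays and below the VHL-/- shRNA arrays.

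Expressed as fitted differences, CCND1 was higher by 1.39 after PBRM1 shRNA in VHL-/- cells and by 1.37 in VHL+/+ cells on the log2 scale, which is 2.62-fold and 2.59-fold. After KDM5C shRNA the difference was 1.34 in VHL-/- and 1.295 in VHL+/+ cells, or 2.53-fold and 2.45-fold. VHL lowered CCND1 by 3.05-fold in SCR cells, 3.08-fold in PBRM1 shRNA cells and 3.14-fold in KDM5C shRNA cells, with log2 differences of -1.61, -1.62 and -1.65. The SE of each of these 7 differences was 0.12. Ranked by size among 13141 genes, they stood at places 16, 6, 13, 8, 7, 6 and 9 in the order given. Since CCND1 was chosen for these changes, the places and the SE are a description. The differences that share SCR arrays are not independent of each other. CCND1 showed no chip difference past the threshold (-0.06, limma adjusted p = 0.625). The 2 values that moved most between chips were those with VHL-/- KDM5C shRNA cells, whose chip 2 array was the highest of all. The KDM5C shRNA difference in VHL-/- cells was 1.16 on chip 1 and 1.701 on chip 2, and the VHL difference in KDM5C shRNA cells was -1.44 on chip 1 and -2.07 on chip 2.

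Whether the shRNA effect on CCND1 depended on VHL was examined with the interaction term. Neither this term nor the comparison of the shRNAs below was itself used to choose CCND1. Both rest on the arrays that chose it for a rise after either shRNA, so their p-values and intervals are not independent of that choice. The PBRM1 shRNA effect in VHL+/+ minus that in VHL-/- cells was -0.02, with a 95% confidence interval from -0.37 to 0.33 (limma adjusted p = 0.999936). For KDM5C shRNA the same term was -0.05, with an interval from -0.40 to 0.31 (adjusted p = 0.970). On single chips the latter was 0.22 on chip 1 and -0.57 on chip 2. The intervals reach 0.40 in size. Since CCND1 was chosen on the same arrays, they are a description and do not exclude a larger difference. Over all genes 0% were called in either interaction, with 553 genes and 1014 genes at an unadjusted p under 0.05. The comparison of the shRNAs with each other did not pass either: PBRM1 shRNA minus KDM5C shRNA was 0.05 in VHL-/- cells (interval -0.20 to 0.30, limma adjusted p = 0.987) and 0.08 in VHL+/+ cells (interval -0.17 to 0.33, adjusted p = 0.995). In VHL-/- cells the sign differed between the chips, with 0.31 on chip 1 and -0.46 on chip 2. In these comparisons too 0% of genes were called, with 707 and 545 genes at an unadjusted p under 0.05. No other member passed the test in any of these 4 comparisons.

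CCND3 encodes cyclin D3, the other D-type cyclin among the 6, and did not follow CCND1. Its log2 signal in VHL-/- cells was 11.40, 11.28 and 11.24 with SCR, 11.23, 11.06 and 11.21 with PBRM1 shRNA and 11.15, 11.14 and 10.90 with KDM5C shRNA. In VHL+/+ cells it was 10.98, 11.43 and 11.10 with SCR, 11.20, 11.24 and 10.95 with PBRM1 shRNA and 11.39, 11.63 and 11.45 with KDM5C shRNA. By group mean, KDM5C shRNA cells were thus the lowest without VHL and the highest with it. CCND3 was 0.42 higher with VHL in KDM5C shRNA cells (SE 0.10, limma adjusted p = 0.0412), with no overlap of the arrays. This call was lost without 12 of the 18 arrays taken one at a time, where the adjusted p ranged from 0.0201 to 0.155, and with no chip term it was 0.130. In VHL-/- cells the KDM5C shRNA difference was -0.24 (adjusted p = 0.237) and in VHL+/+ cells it was 0.31 (adjusted p = 0.106), and neither passed, although the latter did without VHL+/+ SCR replicate 2 (adjusted p = 0.0340). After PBRM1 shRNA the differences were -0.14 and -0.04. The remaining D-type cyclin, CCND2, lay near the floor of the table at 6.54 to 6.77 on all arrays but 1, a VHL-/- KDM5C shRNA array at 7.59.

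The kinase genes CDK4 and CDK6 stayed within a narrow range. CDK4 lay between 11.36 and 11.85 on the 18 arrays, and its 7 differences ran from -0.12 to 0.17 (SE 0.10) with no limma adjusted p below 0.446. CDK6 lay between 11.27 and 12.25, and its 7 differences ran from -0.17 to 0.27 (SE 0.13) with no adjusted p below 0.366. Part of the spread of CDK6 lay between the chips, since chip 2 arrays were 0.44 lower (adjusted p = 9.918e-04). For CDK4 and CDK6 the groups of arrays overlapped in all 7 comparisons.

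The inhibitor gene CDKN1A was 0.80 higher on chip 2 than on chip 1 (limma adjusted p = 6.511e-07), and this shift was larger than any of its 7 fitted differences between groups. On the chip 1 arrays of VHL-/- cells its log2 signal was 10.35 and 10.33 with SCR, 10.23 and 9.94 with PBRM1 shRNA and 10.12 and 10.03 with KDM5C shRNA, and the chip 2 arrays read 11.14, 10.61 and 10.91. On the chip 1 arrays of VHL+/+ cells it was 10.53 and 10.72 with SCR, 10.33 and 10.32 with PBRM1 shRNA and 10.50 and 10.65 with KDM5C shRNA, and the chip 2 arrays read 11.40, 11.44 and 11.32. Within a chip, the VHL+/+ arrays lay above the VHL-/- arrays of the same shRNA, whereas over both chips the groups overlapped.

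With the chip in the model, CDKN1A rose with VHL in PBRM1 shRNA cells by 0.43 (SE 0.10, limma adjusted p = 0.0326) and in KDM5C shRNA cells by 0.47 (SE 0.10, adjusted p = 0.0205). In SCR cells the difference was 0.28 (adjusted p = 0.180). The calls rested on the chip term: without it the adjusted p was 0.825 and 0.723. On chip 1 alone the difference in PBRM1 shRNA cells was 0.24 and in KDM5C shRNA cells 0.50, against 0.83 and 0.41 on chip 2. Leaving out 1 array, the first call was lost without replicate 3 of the VHL+/+ PBRM1 shRNA arrays and without replicate 2 or 3 of the VHL-/- ones (adjusted p up to 0.228), and the second without VHL+/+ KDM5C shRNA replicate 2 or 3 or VHL-/- KDM5C shRNA replicate 1 or 2 (up to 0.0902). After either shRNA the differences of CDKN1A ran from -0.35 to -0.06, and none passed. The nearest was PBRM1 shRNA in VHL-/- cells at -0.35 (adjusted p = 0.0628), which passed once the first PBRM1 shRNA array of VHL-/- cells (adjusted p = 0.0134) or the third of VHL+/+ cells (0.0322) was left out.

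CDKN1B had the lowest signal of the 6 genes, at the 69.5th percentile. Its log2 signal with SCR was 8.23, 8.52 and 8.32 in VHL-/- cells and 8.44, 8.47 and 8.48 in VHL+/+ cells. With PBRM1 shRNA it was 8.81, 8.77 and 8.58 in VHL-/- cells and 8.50, 8.79 and 9.34 in VHL+/+ cells. With KDM5C shRNA it was 8.53, 8.43 and 9.24 in VHL-/- cells and 8.89, 8.50 and 8.94 in VHL+/+ cells. The SCR arrays of VHL+/+ cells lay close together. As deposited, no shRNA array fell below an SCR array of its background except with KDM5C shRNA in VHL-/- cells. With the chip effect removed, the PBRM1 shRNA and SCR arrays of VHL-/- cells overlapped as well. The differences were 0.37 and 0.41 after PBRM1 shRNA and 0.38 and 0.31 after KDM5C shRNA in VHL-/- and VHL+/+ cells respectively, each with an SE of 0.18. None passed, with limma adjusted p from 0.275 to 0.384, although PBRM1 shRNA in VHL-/- cells did when only the arrays of that comparison were fitted (0.0399). With VHL the differences of CDKN1B were 0.04 to 0.15.

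**Figure D2:**
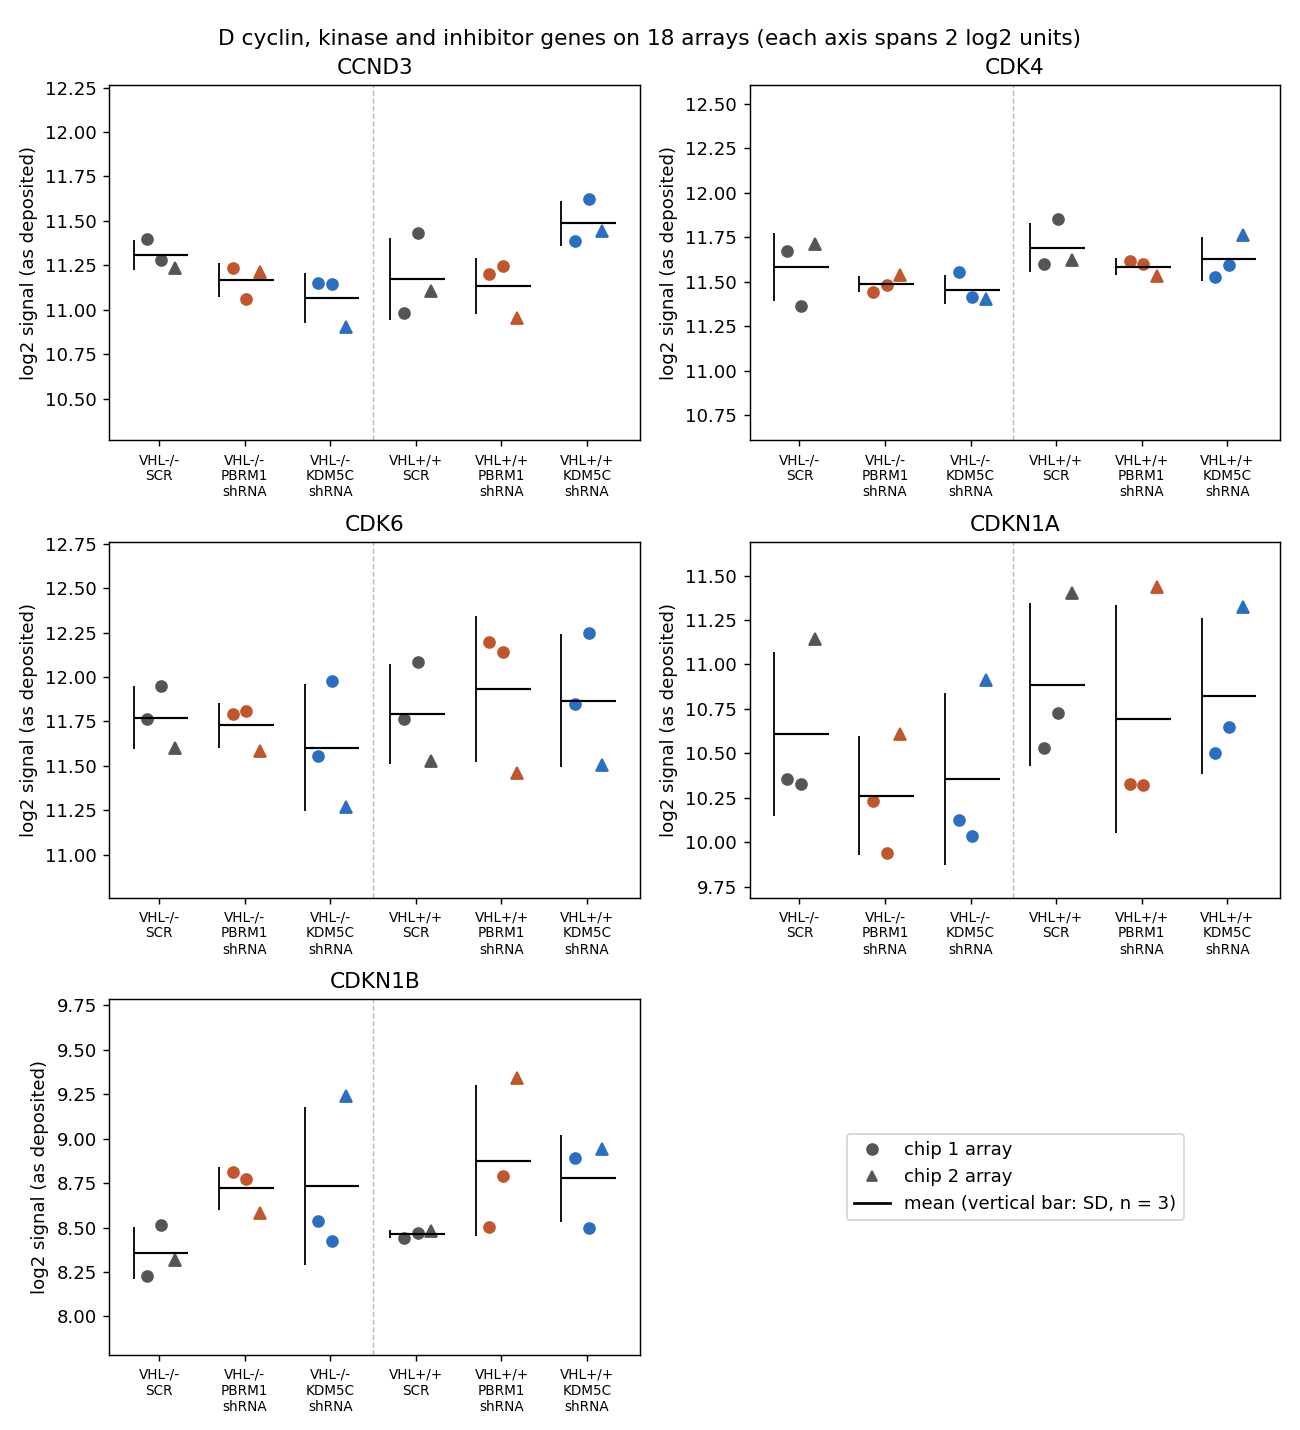
Log2 signal as deposited (vertical axes, each spanning 2 log2 units) of CCND3, CDK4, CDK6, CDKN1A and CDKN1B on the 18 arrays in the 6 groups (horizontal axes). Symbols are as for CCND1: circles chip 1, triangles chip 2, horizontal lines means and vertical lines the SD (n = 3). The chip 2 arrays of CDKN1A lie above the chip 1 arrays of the same group in all 6 groups.

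Counted over the 5 members other than CCND1, 0 passed the test after PBRM1 shRNA in VHL-/- cells, where 5.43% of all genes were called, and 0 in VHL+/+ cells, where 2.49% were. After KDM5C shRNA 0 of 5 passed in VHL-/- cells (4.78% of all genes) and 0 of 5 in VHL+/+ cells (4.19%). With VHL 0 of 5 passed in SCR cells (3.2% of all genes), 1 in PBRM1 shRNA cells (2.37%) and 2 in KDM5C shRNA cells (2.77%). With 5 genes, a share of this size in the background corresponds to less than 1 gene.

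**Figure D3:**
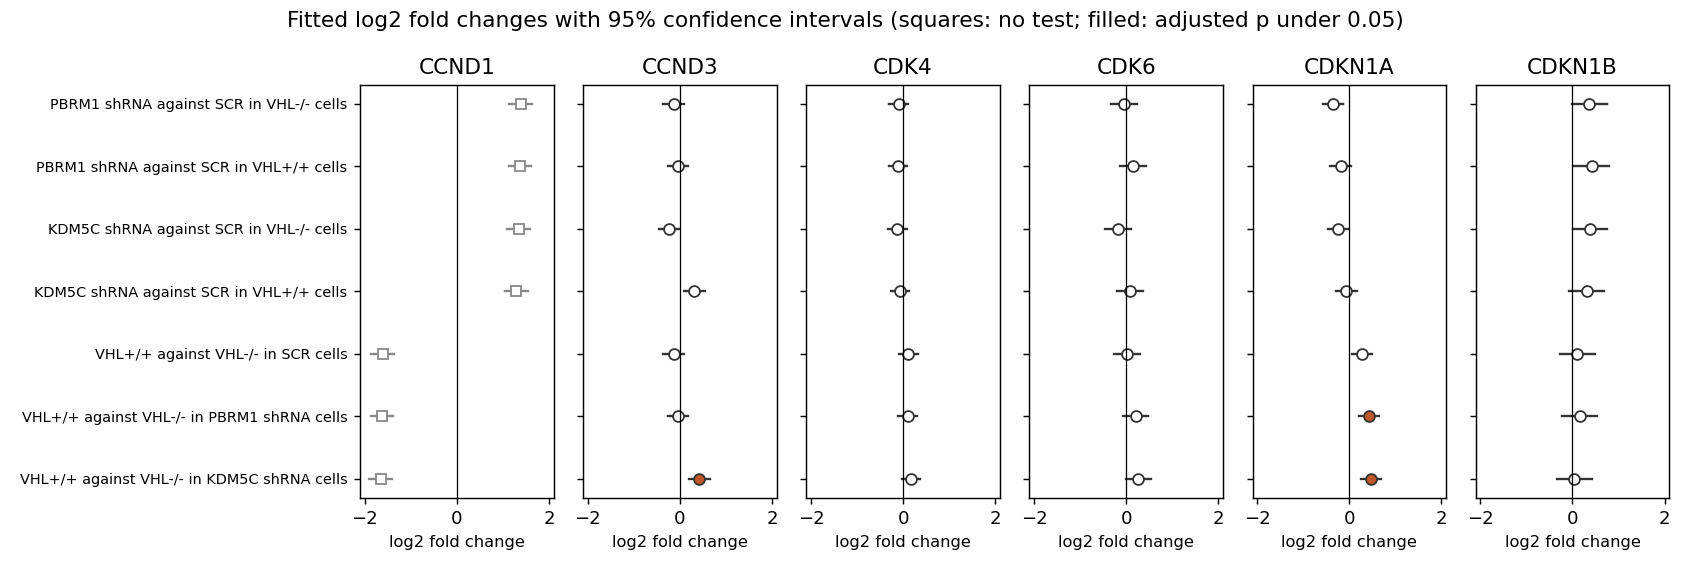
Fitted log2 fold change (horizontal axes) of the 6 genes in 7 comparisons (vertical axis), with lines for the 95% confidence interval. Squares mark CCND1, which was not tested here, and filled circles mark an adjusted p under 0.05. CCND1 lies between 1.295 and 1.39 after either shRNA and between -1.65 and -1.61 with VHL, whereas no other member exceeds 0.47 in size.

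The genes around this axis were examined with a list of 42 further genes of the G1/S step, of which 40 have a row (CDKN2A and CCNE2 do not). After PBRM1 shRNA 4 were higher and 1 lower in VHL-/- cells, and the counts were the same in VHL+/+ cells. After KDM5C shRNA 6 were higher and 1 lower in VHL-/- cells and 3 higher and 1 lower in VHL+/+ cells. These are 12.5%, 12.5%, 17.5% and 10% of the list, beside the 5.43%, 2.49%, 4.78% and 4.19% of all genes given above. The median difference over the list was at most 0.0247 in size in all 4. The list was chosen with earlier results of these data known, and its comparisons with the same SCR arrays are not independent.

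RB1, E2F2 and SKP2 were the 3 genes of the list that were higher after both shRNAs in both backgrounds. RB1, the pocket protein that the cyclin D kinases phosphorylate, read 7.65, 7.72 and 7.74 with SCR in VHL-/- cells, and 8.06 to 8.57 on the shRNA arrays of this background. In VHL+/+ cells it read 7.82, 7.85 and 7.59 with SCR and 8.14 to 8.65 with either shRNA. It rose by 0.70 and 0.69 after PBRM1 shRNA and by 0.58 and 0.61 after KDM5C shRNA in VHL-/- and VHL+/+ cells (SE 0.13, limma adjusted p = 0.00325, 0.00601, 0.0131 and 0.0122). The KDM5C shRNA calls of RB1 were lost without any of 4 arrays in VHL-/- cells (VHL-/- SCR replicate 1 or 2, VHL-/- KDM5C shRNA replicate 2 or 3) and of 2 arrays in VHL+/+ cells (VHL+/+ SCR replicate 3, VHL+/+ KDM5C shRNA replicate 1), with adjusted p up to 0.0736 and 0.0597.

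E2F2 encodes one of the activator E2F factors. It read 8.57, 8.51 and 8.31 with SCR and 8.82 to 9.27 with either shRNA in VHL-/- cells, and 7.98, 8.28 and 8.21 with SCR and 8.76 to 9.18 with either shRNA in VHL+/+ cells. The rise was 0.59 and 0.69 after PBRM1 shRNA and 0.65 and 0.89 after KDM5C shRNA (SE 0.12, limma adjusted p = 0.00715, 0.00364, 0.00355 and 5.318e-04). On chip 1 alone E2F2 rose by 0.40 after PBRM1 shRNA in VHL-/- cells, which did not pass (adjusted p = 0.135), against 0.96 on chip 2. The call was also lost without VHL-/- SCR replicate 3.

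SKP2 encodes the F-box protein that directs CDKN1B to degradation. It read 9.36 to 9.75 on the SCR arrays and 9.96 to 10.35 on the shRNA arrays of both backgrounds, with no overlap. It rose by 0.40 and 0.44 after PBRM1 shRNA and by 0.56 and 0.51 after KDM5C shRNA (SE 0.09, limma adjusted p = 0.0173, 0.0161, 0.00211 and 0.00641). The SKP2 call after PBRM1 shRNA was lost in VHL-/- cells without SCR replicate 1 or 2 or PBRM1 shRNA replicate 2 (adjusted p up to 0.0977) and in VHL+/+ cells without SCR replicate 3 or PBRM1 shRNA replicate 2 or 3 (up to 0.107). TFDP1, the partner that E2F factors need to bind DNA, rose by 0.32 and 0.30 after PBRM1 shRNA and by 0.37 after KDM5C shRNA in VHL-/- cells (SE 0.07, adjusted p = 0.0161, 0.0402 and 0.00685). The second of these was lost without 11 of the 18 arrays (adjusted p up to 0.199), the first without replicate 2 of VHL-/- SCR or replicate 3 of VHL-/- PBRM1 shRNA (up to 0.101), and all of them with no chip term (0.115, 0.224 and 0.0693). After KDM5C shRNA in VHL-/- cells CCNH, the cyclin of the CDK-activating kinase, rose by 0.48 (adjusted p = 0.0200) and FBXO4, an F-box protein described as acting on cyclin D1, by 0.27 (adjusted p = 0.0479). The FBXO4 call was lost without 14 of the 18 arrays and the CCNH call without VHL-/- SCR replicate 1 or 3 or VHL-/- KDM5C shRNA replicate 1 or 2 (adjusted p up to 0.167 and 0.0951).

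CRYAB moved opposite to CCND1 in all 7 comparisons. It encodes the small heat shock protein alpha B-crystallin, which is described as a partner of FBXO4 in the turnover of cyclin D1. It read 7.52, 7.65 and 7.58 with SCR and 6.75 to 6.89 with either shRNA in VHL-/- cells, and 8.17, 8.11 and 8.39 with SCR and 7.13 to 7.66 with either shRNA in VHL+/+ cells. CRYAB fell by 0.71 and 0.86 after PBRM1 shRNA and by 0.78 and 0.75 after KDM5C shRNA in VHL-/- and VHL+/+ cells (SE 0.09, limma adjusted p = 2.457e-04, 8.032e-05, 1.123e-04 and 2.628e-04). With VHL it rose by 0.64 in SCR cells, 0.49 in PBRM1 shRNA cells and 0.67 in KDM5C shRNA cells (adjusted p = 0.00107, 0.00768 and 6.277e-04). The second was lost without VHL+/+ PBRM1 shRNA replicate 3 (adjusted p = 0.0667), and the calls in cells with either shRNA when only the arrays of the comparison were fitted (0.121 and 0.0517). Its signal in VHL-/- cells with either shRNA lay near the low end of the table.

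With VHL, the same 2 genes of the list passed in each of the 3 comparisons, CRYAB upward and E2F7 downward, which is 5% of the list beside 3.2%, 2.37% and 2.77% of all genes. E2F7 encodes an E2F factor that represses transcription. With SCR it read 9.47, 9.42 and 9.03 in VHL-/- cells and 9.10, 8.93 and 8.55 in VHL+/+ cells. The differences were -0.45 in SCR cells, -0.53 in PBRM1 shRNA cells and -0.58 in KDM5C shRNA cells (SE 0.11, limma adjusted p = 0.0280, 0.0115 and 0.00706). E2F7 also differed between the chips (-0.41, adjusted p = 3.429e-04), and its call in SCR cells was lost without any 1 of the 6 arrays compared (adjusted p up to 0.115). In PBRM1 shRNA cells the E2F7 difference was -0.30 on chip 1 and -1.004 on chip 2, and the call was lost without VHL+/+ PBRM1 shRNA replicate 3 (0.0957), with only the arrays compared (0.235) and on chip 1 (0.209). All 3 E2F7 calls were lost with no chip term (0.408, 0.374 and 0.265).

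**Figure D4:**
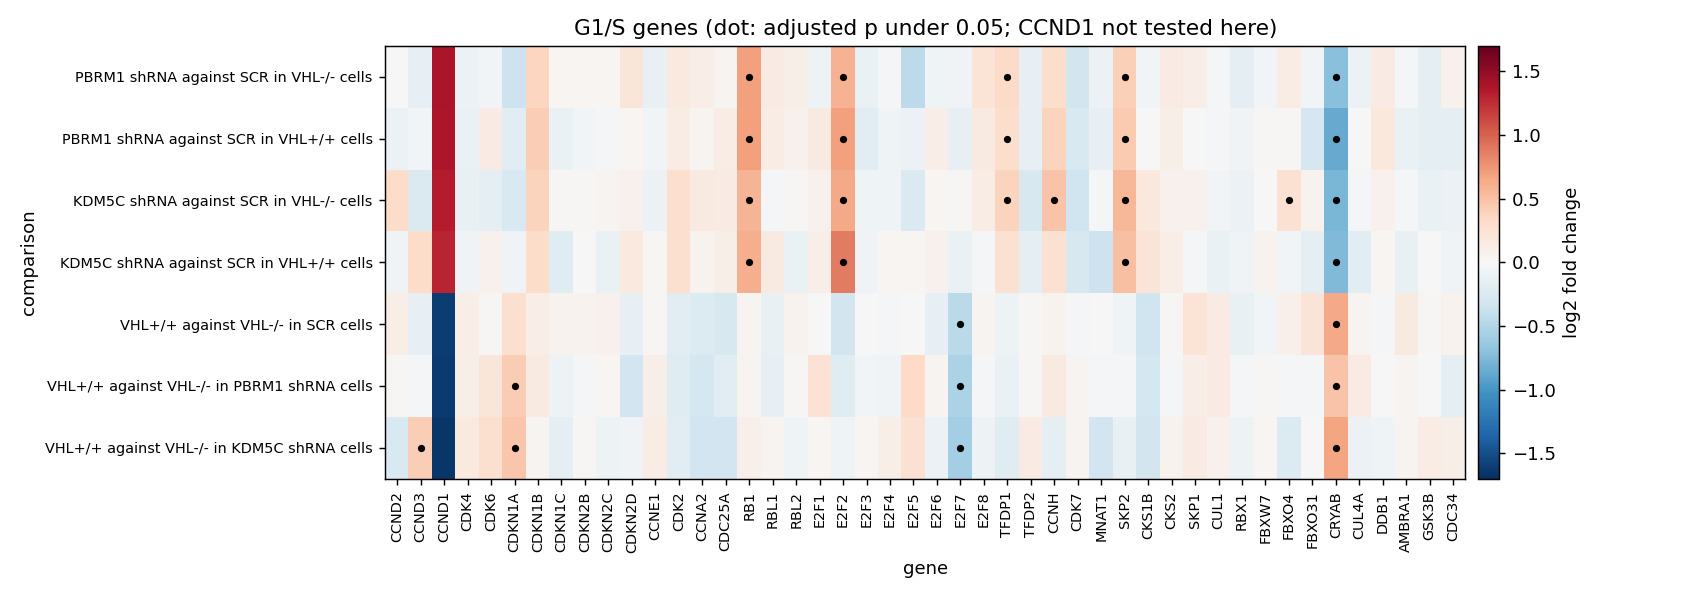
Fitted log2 fold change (colour, red higher and blue lower) of the 6 members and the 40 further G1/S genes (horizontal axis) in 7 comparisons (vertical axis). A black dot marks an adjusted p under 0.05, and CCND1 was not tested here. RB1, E2F2, SKP2 and CRYAB carry a dot in all 4 shRNA comparisons, and CRYAB and E2F7 in all 3 VHL comparisons.

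RefSeq promoter windows of GRCh38.p14 held 5 of the 6 members, CCND1 being the gene without an entry. In the 250 bases before the start site, the core letters of HIF binding, searched as ACGTG or GCGTG on both strands, occurred in 43.2% of 35116 windows and in at least 1 window of each of the 5 members. CCND3 and CDK6 had more than 1 window each, and for both of them not every window held the letters. The first value is a share of windows and the second a count of genes, so they cannot be compared directly. The E2F letters TTTCCCGC, TTTGGCGC, TTTCGCGC and TTTGCCGC on both strands occurred in 2.79% of windows and in none of the members. The CDK4 window is shown because it held the HIF letters in 3 places, while CDK4 did not pass the test with VHL. The E2F2 window is shown because E2F2 rose after both shRNAs and its window held an E2F match. RB1 and SKP2 also rose after both shRNAs, and their windows were not examined one by one. The E2F2 match is therefore a single picked case. The CDK4 window lies at chr12:57752311-57752560 and the E2F2 window at chr1:23531234-23531483, both on the minus strand. Capitals mark CACGTG in CDK4, which holds ACGTG on both strands and is also the E-box of basic helix-loop-helix factors, and the E2F letters in E2F2.
CDK4: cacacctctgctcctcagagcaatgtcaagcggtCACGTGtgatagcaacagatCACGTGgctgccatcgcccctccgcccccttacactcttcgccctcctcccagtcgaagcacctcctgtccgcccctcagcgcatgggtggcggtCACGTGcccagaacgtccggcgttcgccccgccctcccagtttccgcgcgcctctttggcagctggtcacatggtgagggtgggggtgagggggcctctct
E2F2: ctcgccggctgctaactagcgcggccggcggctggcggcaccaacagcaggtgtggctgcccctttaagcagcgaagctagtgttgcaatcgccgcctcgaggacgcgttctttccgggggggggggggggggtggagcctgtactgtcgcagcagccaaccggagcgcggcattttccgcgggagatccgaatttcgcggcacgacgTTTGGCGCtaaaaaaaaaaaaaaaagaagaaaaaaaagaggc
A match is a sequence description and was not tested for binding in these cells.

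Genes that E2F factors are known to activate at S phase entry formed a list of 37, of which 35 have a row. After PBRM1 shRNA 4 were higher in VHL-/- cells (DUT, EZH2, MCM6 and RFC4) and 0 in VHL+/+ cells. After KDM5C shRNA 3 were higher in VHL-/- cells (DUT, MCM6 and RFC4) and 4 in VHL+/+ cells (CDT1, DUT, MCM6 and MCM7), and 0 were lower in any of these. These are 11.4%, 0%, 8.57% and 11.4% of the list after PBRM1 shRNA and KDM5C shRNA, each in VHL-/- then VHL+/+ cells, beside 5.43%, 2.49%, 4.78% and 4.19% of all genes. With 1 array left out the counts ran from 1 to 4, 0 to 2, 1 to 4 and 0 to 4. After PBRM1 shRNA the EZH2 call was lost without any 1 of the 6 arrays compared, that of RFC4 without 5 of them and that of MCM6 without 4. After KDM5C shRNA in VHL-/- cells RFC4 was lost without 10 of the 18 arrays and MCM6 without 5, and in VHL+/+ cells MCM7 without 5. The median over the list was 0.19, 0.12, 0.13 and 0.20, where the median of all genes was at most 0.00288 in size. DUT, which hydrolyses dUTP, rose by 0.43 after PBRM1 shRNA and by 0.51 after KDM5C shRNA in VHL-/- cells (limma adjusted p = 0.00619 and 0.00174) and by 0.42 after KDM5C shRNA in VHL+/+ cells (adjusted p = 0.00950). The last of these was lost without replicate 1 or 3 of VHL+/+ SCR or replicate 3 of VHL+/+ KDM5C shRNA (up to 0.0614) and on chip 1 alone (0.101). CDT1, a licensing factor of replication origins, rose by 0.64 after KDM5C shRNA in VHL+/+ cells (adjusted p = 0.0121, up to 0.0763 without VHL+/+ SCR replicate 1 or 3 or VHL+/+ KDM5C shRNA replicate 3), and MCM6, a subunit of the replicative helicase, by 0.37 (adjusted p = 0.0495), a call lost without 13 of the 18 arrays. With VHL the medians were -0.15, -0.18 and -0.11 in SCR, PBRM1 shRNA and KDM5C shRNA cells, and BRCA1 alone was lower, with -0.31 in SCR cells (adjusted p = 0.0466) and -0.34 in PBRM1 shRNA cells (adjusted p = 0.0322). The BRCA1 call in SCR cells was lost without 12 of the 18 arrays and the other without 5 (adjusted p up to 0.194 and 0.201).

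CDKN1A is a classical p53 target, and the p53 list without it has 19 of 21 genes in the table. It gave 1 gene higher after PBRM1 shRNA and 1 after KDM5C shRNA in VHL-/- cells, in both cases TRIAP1, and 0 in VHL+/+ cells. That is 5.26% of the list in each case, near the 5.43% and 4.78% of all genes. With VHL PPM1D and TRIAP1 were higher in SCR cells (0.49 and 0.48, limma adjusted p = 0.0197 and 0.0202), PPM1D in PBRM1 shRNA cells (0.49, adjusted p = 0.0215), and 0 genes in KDM5C shRNA cells. These are 10.5%, 5.26% and 0% of the p53 list beside 3.2%, 2.37% and 2.77% of all genes. CCND1 is also a target of mitogen signalling, and 22 of 25 genes of a mitogen response list have a row. After PBRM1 shRNA 0 passed in VHL-/- cells and JUNB was lower in VHL+/+ cells (-0.43, adjusted p = 0.0496). After KDM5C shRNA TGFA was higher in VHL-/- cells (0.62, adjusted p = 0.0356) and JUNB lower in VHL+/+ cells (-0.46, adjusted p = 0.0258). A single gene is 4.55% of this list, near the 2.49%, 4.78% and 4.19% of all genes in these 3 comparisons. The AP-1 subunit JUN was lower with VHL, with -0.45, -0.73 and -0.72 in SCR, PBRM1 shRNA and KDM5C shRNA cells (adjusted p = 0.0273, 8.150e-04 and 9.939e-04). FOSL1 was lower with VHL in PBRM1 shRNA cells (-0.61, adjusted p = 0.0344) and TGFA in KDM5C shRNA cells (-0.87, adjusted p = 0.00779). With VHL 4.55%, 9.09% and 9.09% of the mitogen response list passed in SCR, PBRM1 shRNA and KDM5C shRNA cells, beside 3.2%, 2.37% and 2.77% of all genes. JUNB after PBRM1 shRNA was lost without 13 of the 18 arrays. Without 1 array, every call of this paragraph could be lost except TRIAP1 after KDM5C shRNA and JUN with VHL in cells with either shRNA. JUN differed between the chips (-0.33, limma adjusted p = 0.00142), and all 3 of its calls were lost with no chip term (adjusted p = 0.312, 0.0903 and 0.0717). Its call in KDM5C shRNA cells was also lost with only the arrays compared (0.0690).

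The HIF target list, with 21 of 25 genes in the table, was lower in many members with VHL, as CCND1 was, and in 1 or 2 in each shRNA comparison. With VHL 9 of its genes were lower in SCR cells, 10 in PBRM1 shRNA cells and 11 in KDM5C shRNA cells, and 0 were higher, with medians of -0.43, -0.54 and -0.57. These are 42.9%, 47.6% and 52.4% of the list beside 3.2%, 2.37% and 2.77% of all genes. With no chip term the counts were 3, 3 and 5. The count in SCR cells was 5 when replicate 2 of the VHL+/+ SCR arrays or replicate 1 or 2 of the VHL-/- ones was left out, and that in PBRM1 shRNA cells was 5 with only the arrays compared. ADM had differences of -1.78, -1.94 and -2.06 (limma adjusted p = 1.543e-05, 3.561e-06 and 1.507e-06), NDRG1 of -1.71, -1.77 and -2.28, and the glucose transporter gene SLC2A1 of -1.05, -1.28 and -1.14. These calls held without any 1 array, but NDRG1 did not pass with no chip term (adjusted p from 0.189 to 0.416). After PBRM1 shRNA 0 were higher, 1 was lower in VHL-/- cells and 2 were lower in VHL+/+ cells, STC2 among these 2. After KDM5C shRNA 2 were higher and 1 lower in VHL-/- cells, and 1 higher and 2 lower in VHL+/+ cells. These are 4.76%, 9.52%, 14.3% and 14.3% of the list, beside 5.43%, 2.49%, 4.78% and 4.19% of all genes. The counts include lower genes that are not named here. After KDM5C shRNA EGLN3 and TGFA were higher in VHL-/- cells and CA12 in VHL+/+ cells, while STC2 was lower in VHL+/+ cells. The EGLN3 call was lost with no chip term (limma adjusted p = 0.118). That of CA12 was lost without VHL+/+ SCR replicate 1 or VHL+/+ KDM5C shRNA replicate 3 (up to 0.0524). The STC2 calls after PBRM1 and KDM5C shRNA were lost with no chip term (0.263 and 0.147), on chip 1 alone (0.0698 and 0.0596) and without some single arrays (up to 0.131 and 0.0519). The medians were -0.004, -0.03, 0.08 and -0.04 after PBRM1 and KDM5C shRNA in VHL-/- and VHL+/+ cells in the order used above.

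The genes whose pattern over the 18 arrays was most like that of CCND1, by Pearson's r after removal of the chip effect among 13140 genes, were DPYSL2 (0.98), LCP1 (0.94), SEMA4B (0.93), ERRFI1 (0.93), CPEB1 (0.93) and COL6A3 (0.93). Among the most opposite were SEMA3A (-0.98) and CRYAB (-0.96). DPYSL2 had group means of 9.54, 10.19 and 10.21 with SCR, PBRM1 shRNA and KDM5C shRNA in VHL-/- cells and of 8.49, 9.11 and 9.14 in VHL+/+ cells. As for CCND1, both shRNA means lay above SCR in each background, and all VHL+/+ means lay below VHL-/- SCR. The shRNA and VHL differences of DPYSL2 were smaller than those of CCND1, and KDM5C shRNA lay slightly above PBRM1 shRNA. SEMA3A ran the other way, with 7.80, 7.13 and 7.17 in VHL-/- and 8.66, 7.86 and 7.91 in VHL+/+ cells. The values fall into 6 groups of arrays, so that r mostly reflects the group means, and it is a description. Among the other members r with CCND1 was -0.84 for CDKN1A, -0.66 for CDK4, -0.39 for CDK6, -0.26 for CCND3 and 0.31 for CDKN1B. Over the values as deposited, with the chip effect kept, CDKN1A had an r of -0.49, SEMA4B fell to place 194 and ERRFI1 to place 62.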

How the data were processed

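RNA of 18 samples was hybridised to Illumina HumanHT-12 V4 arrays. The deposited values are log2 signals per gene: per the study's methods, the authors read the arrays with GenomeStudio, corrected the background to positive values and quantile-normalized them with limma, filtered probes on detection (0.05) and gave each gene the mean of its probes. Whether batch correction entered these values is not given in the sources used here. No array was left out. Group came from the labels, and chip is the reading given above of their ChIP tag. Limma 3.58.1 in R 4.3.3 fitted a term for each of 6 groups and for the chip on all 18 arrays (11 residual degrees of freedom), with Benjamini-Hochberg adjustment over 13141 genes within a comparison and calls at an adjusted p under 0.05. The fit was tested on simulated data. The alternatives tried were a fit lacking the chip term, one with a replicate block, only the arrays of a comparison, the dimmest 25% of genes left out, median centring, cyclic loess, trend and robust moderation, fold thresholds of 1.5 and 2, chip 1 alone, and each array left out. The members and gene lists were chosen with earlier results of these data known. The genes named are the members, the targeted genes, called genes of each list (at most 6 by size of change) and the 6 genes most and 3 least like CCND1; CCND2 was named after its values were seen. Some genes that this rule names are not reported here. Array number and signal near background limit the precision, and depth does not apply.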

Additional observations from a re-analysis of the deposited data

Results flagged for a closer look

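The members and called genes of the lists were scanned for a shRNA effect that differed between the VHL backgrounds. A gene was kept if its interaction passed the test or if all its shRNA arrays, set against their SCR mean, ran opposite ways. The p-values and ranges below come from the values that picked the genes, and are a description. CCND3 was the member kept, for KDM5C shRNA. Its KDM5C shRNA and SCR arrays overlapped in VHL+/+ cells. With the chip effect removed, the VHL-/- KDM5C shRNA arrays lay 0.32 to 0.19 below the mean of their SCR group (-0.323 to -0.194), and the VHL+/+ KDM5C shRNA arrays lay 0.175 to 0.414 above theirs. The difference between these effects was 0.55 with an unadjusted limma p of 0.00177, and an adjusted p of 0.354 over all genes, so that it did not pass the correction. Its value stayed between 0.43 and 0.67 when each array was left out in turn.

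PPM1D, a phosphatase gene of the p53 list, ran the opposite way in the same comparison. Its KDM5C shRNA arrays lay 0.083 to 0.351 above the SCR mean in VHL-/- cells and below it in VHL+/+ cells (-0.326 to -0.176). By limma the difference between the effects was -0.47 with an unadjusted p of 0.00670 and an adjusted p of 0.439 over all genes, so that it did not pass either.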

How the results depend on the processing

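CCND1 kept its direction in the 7 comparisons with SCR or between VHL backgrounds under every alternative. On chip 1 alone, with 2 arrays per group, its KDM5C shRNA difference in VHL-/- cells was 1.16 and its VHL difference in KDM5C shRNA cells -1.44, and leaving out 1 array gave 1.16 to 1.43 and -1.74 to -1.47. Differences of CCND1 that did not pass the test changed sign: the KDM5C interaction was 0.22 on chip 1 and -0.13 to 0.14 with 1 array left out, the PBRM1 interaction -0.14 to 0.0605, and PBRM1 minus KDM5C shRNA in VHL-/- cells -0.0388 to 0.24. The cause was not tested.

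The number of G1/S genes called (5, 5, 7 and 4 after PBRM1 and KDM5C shRNA, each in VHL-/- then VHL+/+ cells) was 3, 3 and 2 in the first 3 at a fold of at least 1.5 and 0 in all 4 at a fold of 2, where smaller changes cannot pass by construction. Chip 1 alone gave 3 and 3 after PBRM1 shRNA and 2 after KDM5C shRNA in VHL+/+ cells. With 1 array left out the counts were 3 to 5, 3 to 5, 4 to 7 and 3 to 4. With VHL the counts of 2 became 1 in SCR cells with no chip term or a fold of 1.5, 0 in PBRM1 shRNA cells with no chip term, only the arrays compared, a fold of 1.5 or chip 1 alone, and 1 in KDM5C shRNA cells with no chip term, only the arrays compared or a fold of 1.5. A fold of 2 gave 0 in all 3, and leaving out 1 array gave 1 to 2, 0 to 3 and 2 to 3.

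Small differences that did not pass also changed sign. On chip 1 CCND3 was 0.0160 after PBRM1 shRNA in VHL+/+ cells and 0.0745 with VHL in PBRM1 shRNA cells, and CDKN1B was -0.14 with VHL in PBRM1 shRNA cells. With 1 array left out these ran from -0.16 to 0.0738, -0.11 to 0.0367 and -0.0255 to 0.31. The same was seen for CDK4 (-0.13 to 0.0248) and CDK6 (-0.0481 to 0.16) after KDM5C shRNA in VHL+/+ cells, CDK6 after PBRM1 shRNA in VHL-/- cells (-0.13 to 0.0278), CDK6 and CDKN1B with VHL in SCR cells (-0.0607 to 0.11 and -0.0113 to 0.24) and CDKN1B with VHL in KDM5C shRNA cells (-0.0757 to 0.25). Of 1000 values of single genes under the other settings 881 kept direction and call and 112 lost the call, and of 2250 with 1 array left out 2004 kept both and 215 lost the call.

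Replicate numbers were not taken to pair the arrays, because the labels do not say that they do and not every same-numbered pair had deviations correlated over 0.1. Of 45 such pairs 37 did, the lowest being -0.17 and the highest 0.72, and 14 of 18 arrays were most like one of their own number, a hint from the data and not from the design. When a replicate block took the place of the chip, the G1/S counts were 5, 5, 6, 4, 2, 2 and 3 in the order above, no call of a member changed, and calls just under the threshold were lost for JUNB after PBRM1 shRNA in VHL+/+ cells, FBXO4 and RFC4 after KDM5C shRNA in VHL-/- cells, MCM6 after KDM5C shRNA in VHL+/+ cells and BRCA1 with VHL in SCR cells (limma adjusted p from 0.0504 to 0.0614). Signal near background, rather than depth, limits dim genes such as CCND2 and CRYAB.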
